A study of Mus musculus with 6 samples.

Results

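The myostatin, activin and follistatin axis was read as 10 genes, chosen by gene symbol from the 21572 symbols of the deposited tables: the ligand genes Mstn and Inhba, the antagonist genes Fst and Fstl3, the receptor genes Acvr2a, Acvr2b and Acvr1b, and the Smad genes Smad2, Smad3 and Smad7. RNA sequencing covered soleus muscle of adult C57BL/6 mice in 3 groups of 2 libraries. Wild-type (WT) mice gave a group with the nerve intact and a group denervated for 3 days, and the third group came from Dach2-/-/Hdac9-/- mice, also denervated for 3 days and written DKO-labelled here. The labels list no allele or agent that all 3 groups share, and innervated muscle of the knockout genotype was not analysed here. Any difference of DKO-labelled from innervated muscle is therefore against innervated WT, where denervation and genotype cannot be told apart. The labels do not say whether the deletions are limited to a cell type, how the nerve was removed, or whether the libraries of a group came from separate animals, so p-values speak only of how much these libraries vary, and that variation may be technical.

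Myostatin and the activins are secreted ligands of the TGF-beta superfamily that restrain muscle mass. They bind the type II receptors encoded by Acvr2a and Acvr2b, which recruit a type I receptor such as that of Acvr1b, and this complex phosphorylates Smad2 and Smad3. Follistatin, encoded by Fst, and the follistatin-like protein of Fstl3 hold the ligands outside the cell, and Smad7 is an inhibitory Smad.

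The libraries held between 25529434 and 46305449 assigned fragments. Levels are the authors' FPKM, fragments per kilobase of transcript scaled by the authors to library depth, and can be compared between genes. Differences between groups are given in log2 units ± SE, from the quasi-likelihood test of edgeR on fragment counts. A gene was called where its p, adjusted by the method of Benjamini and Hochberg over 12247 tested genes, was under 0.05. The sample numbers in the labels form a first and a second run of consecutive numbers, each with 1 library of every group. Dach2 had 3.85 and 4.29 FPKM in the innervated pair, 0.519 and 0.536 in the denervated WT pair and 0.961 and 0.681 in the DKO-labelled pair, and Hdac9 had 4.10 and 3.14, then 1.83 and 0.285, then 0.534 and 0.181. Whole-gene values do not check a deletion, and Dach2 was not lower in the DKO-labelled than in the denervated WT libraries. Of 10 fibre markers, 9 were expressed, Ckm at up to 8810 FPKM, and skeletal actin, Acta1, was listed at 0 in all 6 libraries. Denervated WT replicates 1 and 2 were the least alike pair of a group (Pearson's r = 0.966 of log2 normalised counts across genes, which are not independent replicates, against 0.982 and 0.988).

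On build mm9, as the files list whole gene loci, Mstn lies at chr1:53118506-53124923, Inhba at chr13:16106307-16119044, Fst at chr13:115242469-115248938, Fstl3 at chr10:79240018-79251730, Acvr2a at chr2:48669628-48804787, Acvr2b at chr9:119311618-119342624, Acvr1b at chr15:101004555-101043032, Smad2 at chr18:76401578-76465385, Smad3 at chr9:63494573-63605801 and Smad7 at chr18:75527018-75555588. Only 2 of these loci overlap another entry of the tables, Fstl3 with Prssl1 and Acvr2a with Orc4. Fragments of Fstl3 and Acvr2a were not whole numbers in 5 and 6 libraries. How the authors counted strands and shared fragments is not stated in the sources used here, so both genes are uncertain to that extent.

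Per length of transcript, Smad3 had the highest level of the 10 genes in every group, with means of 25.7 ± 3.89 FPKM (innervated WT), 34.8 ± 7.53 (denervated WT) and 34.7 ± 5.61 (DKO-labelled; all ± SD, n = 2). In innervated muscle Acvr1b (5.94 ± 1.26), Smad2 (5.74 ± 0.874), Fst (5.55 ± 2.85) and Acvr2a (4.92 ± 0.568) followed, each differing from the next by less than the larger of their SDs. Acvr2b (2.74 ± 0.0217), Smad7 (1.85 ± 0.299), Mstn (1.03 ± 0.495), Fstl3 (0.924 ± 0.00644) and Inhba (0.496 ± 0.126) were the lower 5, and of these only Mstn and Fstl3 were neighbours within their SDs. In denervated WT muscle Fst stood at position 2 of the 10 instead of 4, at 15.6 ± 7.73 FPKM, followed by Smad2 (8.78 ± 1.29), Acvr1b (8.56 ± 0.0695), Acvr2a (6.63 ± 1.02), Smad7 (2.49 ± 0.331), Fstl3 (1.91 ± 0.198), Acvr2b (0.821 ± 0.527), Mstn (0.488 ± 0.0326) and Inhba (0.279 ± 0.0271). There Fst and Smad2, Smad2 and Acvr1b, and Acvr2b and Mstn were neighbours that differed by less than the larger SD. The DKO-labelled group had the same order of means, from Fst at 15.8 ± 0.851 FPKM in position 2 to Mstn at 0.417 ± 0.202 and Inhba at 0.323 ± 0.0345. Mstn lay at the 8.9 percentile of the tested genes in innervated muscle and at 2.9 in denervated WT muscle, and Smad3 at 80.4 and 84.8. Soleus held both ligand genes at low mRNA levels and the receptor-activated Smad genes at higher ones. In bulk muscle, fewer cells of a type and less RNA per cell cannot be told apart.

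**Figure D1:**
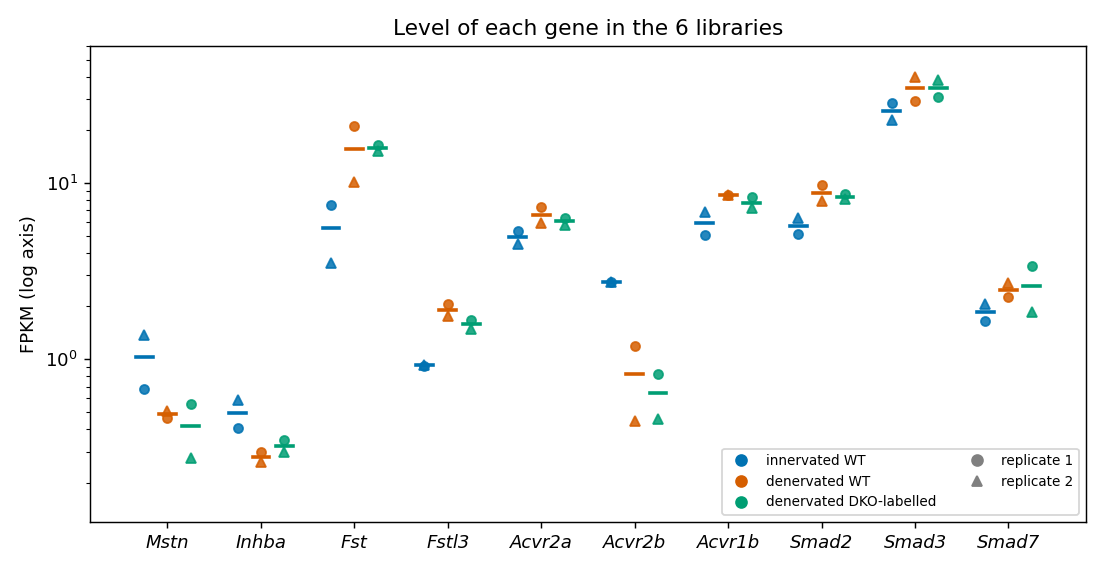
FPKM (log axis) of the 10 genes in each library, with circles for replicate 1, triangles for replicate 2 and a short bar at the mean of each group of 2. By group mean Smad3 is highest and Inhba lowest in all 3 groups, although Mstn lies below Inhba in DKO-labelled replicate 2. The innervated libraries lie above both denervated groups for Mstn, Inhba and Acvr2b, and below them for the other genes except Smad7.

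Promoters are shown for Fstl3, called higher after denervation, and for Mstn and Acvr2b, whose levels lay lower. The sequences are the 250 bases before the RefSeq start on GRCm38.p6, a later build than that of the files, from a table that held 7 of the 10 genes and not Fst, Smad2 or Smad7. They run 5′ to 3′ on the plus strand, from chr1:53061390-53061639 for Mstn, chr9:119401928-119402177 for Acvr2b and chr10:79777024-79777273 for Fstl3. Capitals mark E-boxes (CANNTG), the motif bound by basic helix-loop-helix factors such as myogenin.
Mstn: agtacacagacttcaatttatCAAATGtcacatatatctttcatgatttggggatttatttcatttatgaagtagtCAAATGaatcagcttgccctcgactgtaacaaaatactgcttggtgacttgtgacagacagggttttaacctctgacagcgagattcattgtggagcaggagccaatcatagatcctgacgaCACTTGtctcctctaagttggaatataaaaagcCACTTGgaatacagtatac
Acvr2b: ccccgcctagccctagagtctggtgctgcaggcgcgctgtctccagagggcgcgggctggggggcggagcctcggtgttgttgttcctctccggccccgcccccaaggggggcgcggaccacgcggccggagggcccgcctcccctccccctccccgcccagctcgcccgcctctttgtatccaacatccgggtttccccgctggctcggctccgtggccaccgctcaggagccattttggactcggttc
Fstl3: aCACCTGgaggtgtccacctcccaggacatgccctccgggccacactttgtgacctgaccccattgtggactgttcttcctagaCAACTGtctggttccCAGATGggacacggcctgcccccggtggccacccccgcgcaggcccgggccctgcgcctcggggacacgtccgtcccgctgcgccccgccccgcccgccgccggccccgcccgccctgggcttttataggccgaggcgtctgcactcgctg
The Mstn window has 4 E-boxes, that of Fstl3 has 3 and that of Acvr2b none, against a median of 1 over the 32851 promoters of the table. At least 1 E-box stood in 66.2% of all promoters and in 3 of the 7 of the axis, Acvr1b being the other. The Smad box CAGAC, searched on both strands, stood in 42.2% of all promoters and in 4 of the 7, those of Mstn, Fstl3, Acvr2a and Acvr2b, where 1 of the Fstl3 matches overlaps an E-box by 1 base. TATAAA, also searched on both strands, stood in 12.4% of all and in 3 of the 7. Those of Mstn and Inhba have it on the plus strand, and Fstl3 has its reverse complement TTTATA there. The windows of Acvr2b (72.8% G or C) and Fstl3 (71.2%) are richer in G and C than the median promoter (52.4%), and that of Mstn (38.4%) is poorer. The E-box form CAGCTG stood in 13.0% of all promoters and in 0 of the 7. The FoxO motif GTAAACA, on either strand, stood in 3.17% of all and in 0 of the 7. The AP-1 motif TGANTCA stood in 6.75% of all and in 1 of the 7, that of Mstn. These matches describe the letters only.

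The ligand genes lay lower in denervated muscle without passing the test. Mstn, the gene of myostatin, had 0.683 and 1.38 FPKM in the innervated pair, 0.465 and 0.511 in the denervated WT pair and 0.560 and 0.274 in the DKO-labelled pair. Both denervated groups lay below both innervated libraries, which themselves differed by more than the gap from the lower of them to denervated WT. Against innervated muscle the log2 difference was -1.08 ± 0.48 for WT (edgeR adjusted p = 0.132) and -1.37 ± 0.49 for DKO-labelled muscle (adjusted p = 0.0742). The counts were 33 to 113 fragments per library, with a counting error of 9.41% to 17.4%. Without innervated WT replicate 2 the first difference was -0.50, and DESeq2 called the second one lower (-1.38, adjusted p = 0.0409). The second ran from -1.97 without DKO-labelled replicate 1 to -0.79 without innervated WT replicate 2 and was called in none of the 6 fits that leave out a library.

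Inhba, the gene of the activin A subunit, had 0.407 and 0.585 FPKM in the innervated pair, 0.298 and 0.260 in the denervated WT pair and 0.347 and 0.298 in the DKO-labelled pair. It was the only gene of the 10 under the filter of a mean of 0.5 FPKM and so was not in the main test. Every denervated library lay below both innervated ones, from 18 to 32 fragments per library, with a counting error of 17.7% to 23.6%. In a fit with no filter its differences from innervated muscle were -0.67 ± 0.49 (WT) and -0.45 ± 0.49 (DKO-labelled; edgeR adjusted p = 0.377 and 0.562). Gdf11, the closest relative of Mstn, was also under the filter, at 0.606 and 0.623 FPKM in the innervated pair, 0.411 and 0.356 in the denervated WT pair and 0.375 and 0.244 in the DKO-labelled pair.

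Both antagonist genes were higher in both denervated groups than in innervated WT muscle. Fst had 7.56 and 3.53 FPKM in the innervated pair, 21.1 and 10.1 in the denervated WT pair and 16.4 and 15.2 in the DKO-labelled pair. Each denervated library lay above both innervated ones, although the spread within each WT group was larger than the gap between them. The change was 2.84-fold (log2 1.50 ± 0.45, edgeR adjusted p = 0.0483) in WT. In DKO-labelled against innervated WT muscle Fst was 2.83-fold higher (1.50 ± 0.45, edgeR adjusted p = 0.0457). Within the first and second runs of sample numbers the WT log2 change was 1.48 and 1.55. The WT call was lost in all 3 limma fits (adjusted p = 0.0597 to 0.0643), under a filter of 2 FPKM on the mean, in the fit of the 4 WT libraries, and in 5 of 6 fits that leave out a library, namely denervated WT replicate 1 (0.87), innervated WT replicate 1 (2.17) or 2 (1.06), or DKO-labelled replicate 1 or 2 (both 1.50). The call in DKO-labelled muscle was lost under the filter of 2 FPKM and without innervated WT replicate 1 (2.17) or 2 (1.05) or DKO-labelled replicate 1 (1.45) or 2 (1.55).

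Fstl3 had 0.920 and 0.929 FPKM in the innervated pair, 2.05 and 1.77 in the denervated WT pair and 1.67 and 1.49 in the DKO-labelled pair. The 3 groups did not overlap, and denervated WT was highest. The change was 2.16-fold (log2 1.11 ± 0.27, edgeR adjusted p = 0.0267) in WT. In DKO-labelled against innervated WT muscle Fstl3 was 1.84-fold higher (0.88 ± 0.27, edgeR adjusted p = 0.0493). In WT all 3 limma fits called it too, at 0.59 to 0.94 on scales that shrink low genes, and the call was lost in the fit of the 4 WT libraries (adjusted p = 0.0519) and without innervated WT replicate 1 (1.12) or 2 (1.10) or DKO-labelled replicate 1 or 2 (both 1.11). In DKO-labelled muscle the call was lost without innervated WT replicate 1 (0.88) or 2 (0.87) or DKO-labelled replicate 1 (0.80) or 2 (0.95), and in limma with a pseudocount of 1 (0.42, adjusted p = 0.0501). Within each library Fst had 3.80 to 10.3 times the FPKM of Fstl3. The ratio of Mstn to Fst was 0.0902 and 0.392 in the innervated pair, 0.0221 and 0.0504 in the denervated WT pair and 0.0340 and 0.0180 in the DKO-labelled pair, lower in each denervated library than in both innervated ones. The 9 markers of fibro-adipogenic progenitors, interstitial cells that also express follistatin, summed to 320 to 373 FPKM (innervated WT), 129 to 236 (denervated WT) and 159 to 189 (DKO-labelled), with 0 higher and 3 lower of 9 in WT, 0 lower without innervated WT replicate 1 or 2, and 8 lower without denervated WT replicate 1. Over all tested genes 14.4% were called higher and 14.3% lower in WT. Of these sums Ly6a alone held 142 and 133, 103 and 74.9, and 96.2 and 87.4 FPKM. All 9 markers had a negative log2 change in WT, with a median of -0.96. Pdgfra was at -0.17 ± 0.26, and its libraries overlapped between the groups. The part of these cells in the values of Fst was not tested.

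Of the type II receptor genes Acvr2b lay lower in denervated muscle and Acvr2a higher. Acvr2b, whose receptor binds myostatin and activin, had 2.76 and 2.73 FPKM in the innervated pair, 1.19 and 0.448 in the denervated WT pair and 0.831 and 0.458 in the DKO-labelled pair. All 4 denervated libraries lay below the innervated ones, and the first-run library of each denervated group lay above the second-run library. In DKO-labelled against innervated WT muscle Acvr2b was 3.80-fold lower (log2 -1.92 ± 0.52, edgeR adjusted p = 0.0350). The difference in denervated WT was -1.63 ± 0.51 (edgeR adjusted p = 0.0563), short of the threshold. DESeq2, all 3 limma fits and the fits with no filter or with the run as a block called the WT difference too (adjusted p = 0.0139 to 0.0312), with -1.76 under the block, and without denervated WT replicate 1 it was -2.52 (adjusted p = 0.00977). Without denervated WT replicate 2 it was -1.11. The call in DKO-labelled muscle was lost without innervated WT replicate 1 (-1.91) or 2 (-1.94) or DKO-labelled replicate 1 (-2.41) or 2 (-1.57).

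Acvr2a had 5.32 and 4.52 FPKM in the innervated pair, 7.35 and 5.91 in the denervated WT pair and 6.36 and 5.79 in the DKO-labelled pair. It was higher in each denervated library but not called, with differences from innervated muscle of 0.41 ± 0.18 (WT) and 0.21 ± 0.18 (DKO-labelled; edgeR adjusted p = 0.126 and 0.395). The ratio of Acvr2a to Acvr2b, which no library factor can change, was 1.93 and 1.66 in the innervated pair, 6.16 and 13.2 in the denervated WT pair and 7.65 and 12.6 in the DKO-labelled pair. The 4 denervated libraries all exceeded the innervated ones, and the 2 denervated groups overlapped. An exact permutation test of 2 libraries against 2 cannot give a two-sided p below 0.333, and no other test of the ratio was run. The type I receptor gene Acvr1b had 5.05 and 6.83 FPKM in the innervated pair, 8.51 and 8.61 in the denervated WT pair and 8.30 and 7.20 in the DKO-labelled pair, higher in all denervated libraries. Its differences were 0.59 ± 0.19 and 0.46 ± 0.19 (edgeR adjusted p = 0.0635 and 0.117), and DESeq2 called the first (adjusted p = 0.0337).

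**Figure D2:**
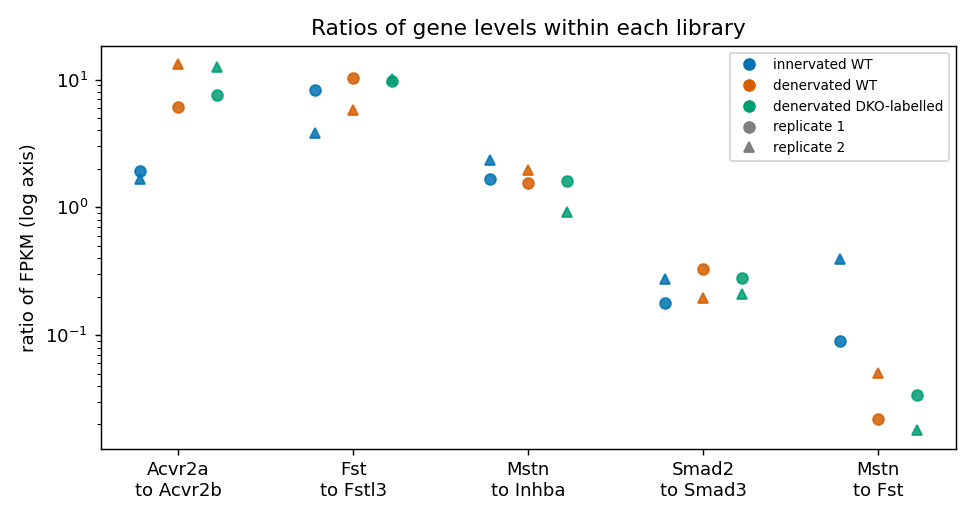
Ratio of the FPKM of 2 genes within each library (log axis), with the 3 groups in colour and the replicates as circles and triangles. Acvr2a to Acvr2b lies at 1.66 and 1.93 in innervated WT and from 6.16 to 13.2 in the denervated libraries, and Mstn to Fst lies lower in all denervated libraries.

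Of the Smad genes, Smad2 rose on denervation in WT. It had 5.12 and 6.36 FPKM in the innervated pair, 9.70 and 7.87 in the denervated WT pair and 8.65 and 8.13 in the DKO-labelled pair, with both denervated groups above the innervated one. The change was 1.55-fold in denervated WT (log2 0.64 ± 0.19, edgeR adjusted p = 0.0494), and the difference in DKO-labelled muscle was 0.54 ± 0.19 (adjusted p = 0.0751). The WT call was lost in limma with a pseudocount of 0.5 or 1 (adjusted p = 0.0579 and 0.0584), under the filter of 2 FPKM, in the fit of the 4 WT libraries, and without denervated WT replicate 1 (0.47), innervated WT replicate 1 (0.49) or 2 (0.79) or DKO-labelled replicate 1 or 2 (both 0.64). The difference in DKO-labelled muscle was called without denervated WT replicate 1 (0.53) or 2 (0.54), in the fit of the 4 libraries compared and in limma with quantile normalization.

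Smad3 had 28.4 and 22.9 FPKM in the innervated pair, 29.4 and 40.1 in the denervated WT pair and 30.7 and 38.7 in the DKO-labelled pair. The gap between the groups was small in the first run, where the WT difference was 0.11, and larger in the second, at 0.89. Every denervated library lay above both innervated ones. The fitted difference from innervated muscle was 0.51 ± 0.23 in WT and 0.53 ± 0.23 in DKO-labelled muscle (edgeR adjusted p = 0.131 and 0.118). The WT difference was called without denervated WT replicate 1, at 0.71 (adjusted p = 0.0403). Without denervated WT replicate 2 it was 0.26.

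Smad7, the gene of the inhibitory Smad, had 1.64 and 2.06 FPKM in the innervated pair, 2.25 and 2.72 in the denervated WT pair and 3.38 and 1.85 in the DKO-labelled pair, which overlapped the innervated ones. Its differences of 0.48 ± 0.32 and 0.59 ± 0.32 did not pass (adjusted p = 0.290 and 0.197), and the second was 0.10 without DKO-labelled replicate 1 and 0.96 without replicate 2. The ratio of Smad2 to Smad3 was 0.180 and 0.277 in the innervated pair, 0.329 and 0.196 in the denervated WT pair and 0.281 and 0.210 in the DKO-labelled pair, so its groups overlapped.

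In denervated against innervated WT muscle 3 of the 9 tested genes were called, all higher, where 28.7% of all tested genes were called in either direction, 14.4% higher and 14.3% lower. In DKO-labelled against innervated WT muscle 3 were called, of which 2 rose and 1 fell, where 31.4% of all genes were called, 15.2% higher and 16.2% lower. Counted in either direction, both shares lie near the background, so the number of calls is not a result about the axis. The libraries of the groups did not overlap for all 9 genes in the first comparison, where 70.6% of all genes did not, and for 8 in the second, Smad7 being the exception, where 76.4% did not. The 2 comparisons share the innervated libraries. The median log2 change over the 9 genes was 0.51 and 0.53, beside 0 and 0.01 over all tested genes. These medians join ligand, antagonist, receptor and Smad genes, and the difference was not tested.

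The comparison of DKO-labelled with WT muscle, both denervated, asked which of these genes depend on the genotype after denervation. The edgeR test called 0 of the 9 genes, where 0.0408% of all genes were called, 0.0245% higher and 0.0163% lower, and 0 had an unadjusted p under 0.05. DESeq2 and the limma fits called 0 of them as well. Log2 differences ran from -0.30 ± 0.52 for Acvr2b to 0.11 ± 0.32 for Smad7, with unadjusted p from 0.305 to 0.996. Their 95% intervals stayed within 2-fold for 6 genes: Fstl3 (0.553 to 1.31 as a ratio), Acvr2a (0.651 to 1.17), Acvr1b (0.663 to 1.26), Smad2 (0.681 to 1.28), Smad3 (0.696 to 1.47) and Smad7 (0.641 to 1.83). They reached past 2-fold for Mstn (0.364 to 1.84), Acvr2b (0.342 to 1.93) and Fst (0.484 to 2.06), so a 2-fold change in at least 1 direction lies within their intervals. For 6 of the 9 genes the 2 runs gave opposite signs, Fst at -0.38 and 0.56 and Smad7 at 0.62 and -0.51 among them. Fstl3 was lower in both runs (-0.25 and -0.20), and so was Acvr1b (-0.02 and -0.24). These 2 of the 9 genes had libraries that did not overlap between the groups, as did 28.5% of all tested genes.

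**Figure D3:**
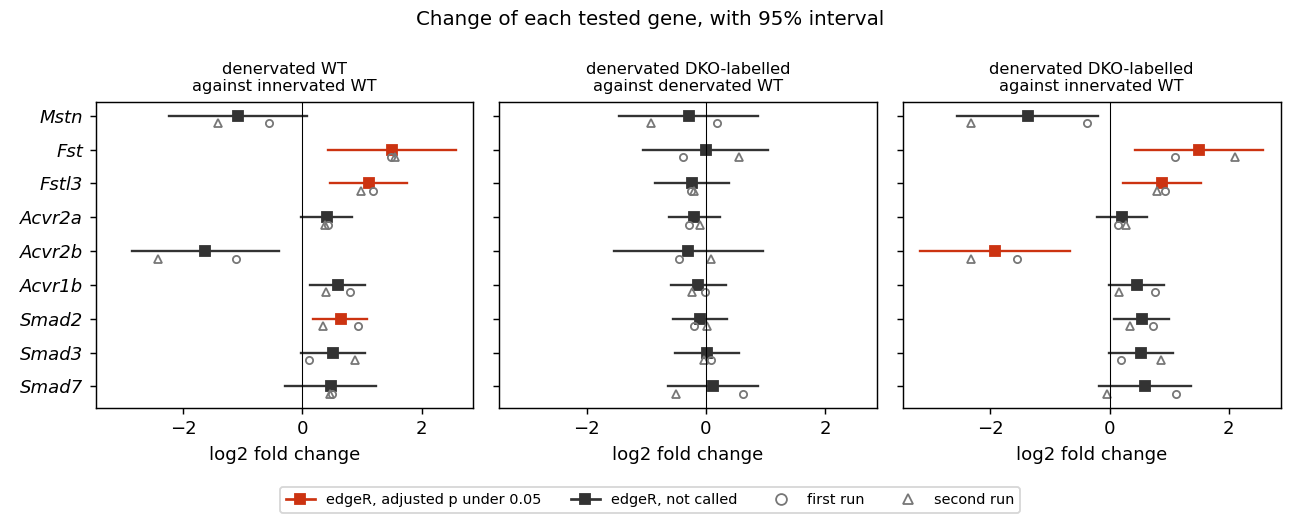
Log2 fold changes of the 9 tested genes in the 3 comparisons (squares, with 95% intervals from edgeR, red where the adjusted p was under 0.05), and the differences within the first (open circles) and second (open triangles) run of sample numbers. Fst, Fstl3 and Smad2 are called in WT, Fst, Fstl3 and Acvr2b in DKO-labelled against innervated WT, and the intervals of all 9 genes include 0 between the 2 denervated groups.

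The other genes of the pathway were read from 5 lists of 45 further genes, of which 34 were tested. In denervated against innervated WT 7 of them rose and 5 fell, where 14.4% and 14.3% of all genes did, and their median was -0.22. In DKO-labelled against innervated WT 7 rose and 6 fell, where 15.2% and 16.2% of all genes did. Without innervated WT replicate 1 the number higher was 0 in WT and 3 in DKO-labelled muscle, and without replicate 2 it was 0 and 1. Among ligands 0 of 5 tested genes, Mstn included, were called by edgeR in either comparison with innervated WT, and 1 had an unadjusted p under 0.05 in each. DESeq2 called 0 of them in WT and 1, Mstn, in DKO-labelled muscle, and the limma fits called 0. In WT edgeR called Tgfb2 higher without denervated WT replicate 1 and Tgfb1 higher without replicate 2. Tgfb3, at 19.5 and 19.4 FPKM in innervated and 26.4 and 22.3 in denervated WT, was the most abundant of them (0.40 ± 0.16, edgeR adjusted p = 0.0985), and Tgfb2 was at 0.74 ± 0.31 (adjusted p = 0.114). Inhbc was listed at 0 in all 6 libraries.

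Among the genes that process or store these ligands, Furin, the protease that cuts the precursors, rose 1.84-fold (edgeR adjusted p = 0.0116). Ltbp3, which tethers latent TGF-beta, rose 2.01-fold (adjusted p = 0.00610) while its relative Ltbp4 fell 3.25-fold (adjusted p = 0.0218). Decorin, Dcn, a matrix proteoglycan that binds TGF-beta and myostatin, fell 1.48-fold (adjusted p = 0.0469). The type I receptor gene Tgfbr1, a partner of Tgfbr2 that myostatin can also use, had 5.80 and 5.03 FPKM in the innervated pair, 14.2 and 16.7 in the denervated WT pair and 15.9 and 22.8 in the DKO-labelled pair. It rose 2.82-fold in WT (log2 1.50 ± 0.22, edgeR adjusted p = 0.00703). In DKO-labelled against innervated WT muscle it was 3.39-fold higher (edgeR adjusted p = 0.00367), a call lost without innervated WT replicate 2. Of 6 receptor genes tested, only Tgfbr1 was called in WT.

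Regulators of Smad action were called in both directions. The co-repressor genes Tgif1 and Skil rose 5.18-fold and 2.08-fold (edgeR adjusted p = 0.00553 and 0.00774), Tgif1 from 3.53 and 3.59 FPKM in innervated to 14.3 and 20.4 in denervated WT. The ubiquitin ligase gene Smurf1 and the Smad phosphatase gene Ppm1a fell 1.60-fold and 1.57-fold (adjusted p = 0.0236 and 0.0245). Of 10 genes that TGF-beta is known to induce, 2 were called higher in WT, where 14.4% of all tested genes were. The log2 change was positive for 3 of the 10 and negative for 7, with a median of -0.46. The cell cycle inhibitor gene Cdkn1a rose 17.7-fold, from 12.6 and 13.0 to 110 and 324 FPKM, and Pmepa1, a feedback inhibitor, rose 2.37-fold (adjusted p = 0.00625 and 0.00843). Against the same innervated libraries, DKO-labelled muscle had Tgif1 6.33-fold and Cdkn1a 11.7-fold higher (adjusted p = 0.00305 and 0.00690). The Cdkn1a call there was lost without innervated WT replicate 1 or 2 (adjusted p up to 0.0688).

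All these WT calls other than that of Dcn held in the 9 alternatives that keep every library of the pair compared, and all of them were lost both without innervated WT replicate 1 and without replicate 2. Over all alternatives the highest adjusted p of a gene lay between 0.0661 for Tgif1 and 0.278 for Dcn. Over the 6 fits that leave out 1 library, the log2 change ran from 2.08 to 2.60 for Tgif1, from 1.36 to 1.61 for Tgfbr1 and from 3.15 to 4.71 for Cdkn1a. The Dcn call was also lost without denervated WT replicate 2 or DKO-labelled replicate 1 or 2, and in 4 further alternatives, with values between -0.68 and -0.43. Between the denervated groups 0 of the 34 genes were called by edgeR, DESeq2 or limma, and 1 had an unadjusted p under 0.05.

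**Figure D4:**
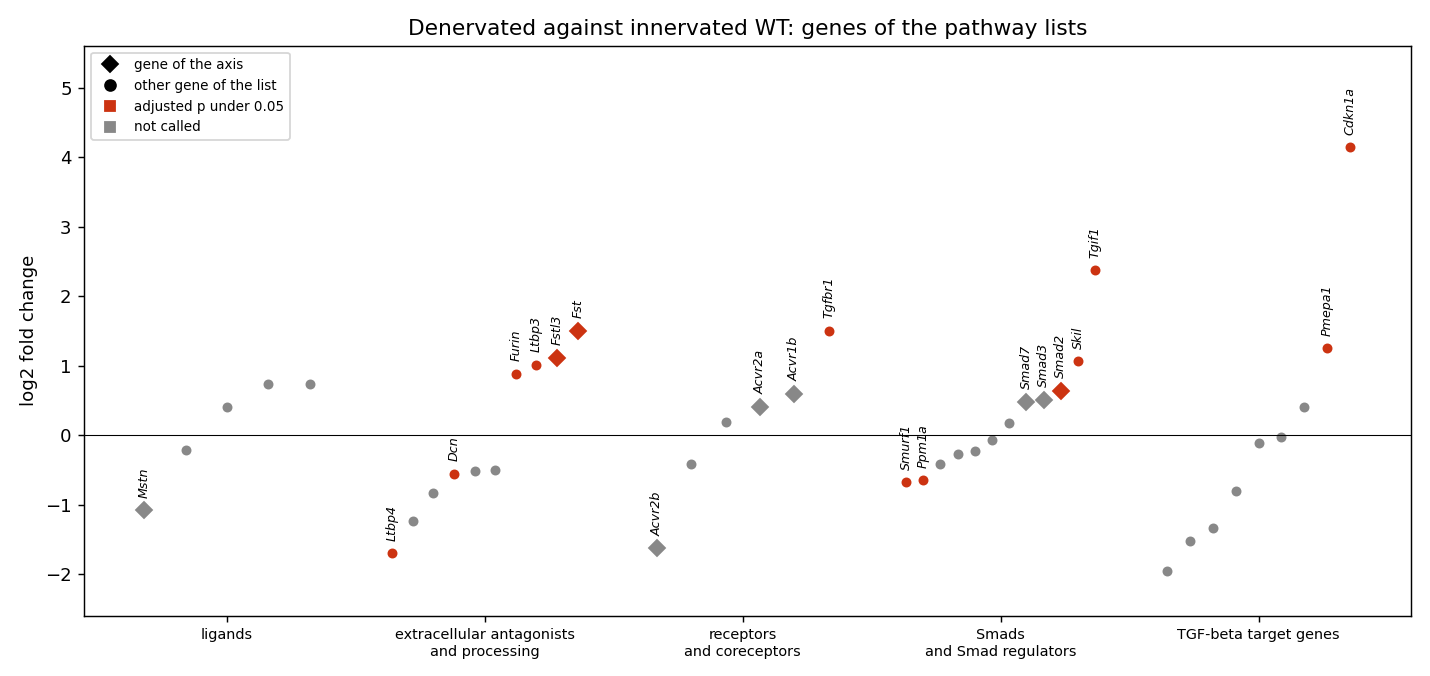
Log2 fold change in denervated against innervated WT of the tested genes of the 5 pathway lists (1 is left out), ordered by value within a list, with diamonds for the genes of the axis and red where the edgeR adjusted p was under 0.05. Labels name the called genes shown and the genes of the axis: Cdkn1a (4.14) and Tgif1 (2.37) are highest, and Acvr2b (-1.63) is the lowest gene of the axis.

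Genes whose log2 normalised counts followed those of the axis most closely over the 6 libraries were found among all tested genes. These correlations describe points that share 3 groups, and carry no p. For Mstn they were Fbxo46 (Pearson's r = 0.9967), Gpr56 (0.9955) and Caskin2 (0.9858), and Gpr56 had 6.43 and 13.5 FPKM in the innervated pair, 4.27 and 4.65 in the denervated WT pair and 4.86 and 2.73 in the DKO-labelled pair, the same order of libraries as Mstn within each group. For Inhba they were Mzt2 (0.9986), Nfic (0.985) and Vsig2 (0.9836), and for Fst they were Mboat2 (0.9907), Ipo8 (0.9884) and S100a4 (0.9838). Mboat2, like Fst, was higher in replicate 1 than in replicate 2 of every group, at 0.689 and 0.290, 1.60 and 0.834, and 1.53 and 1.47 FPKM.

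Markers of other cell types also differed between the groups. Beside the counts of called markers, 14.4% of all tested genes were called higher and 14.3% lower in WT. Fewer genes were called over all genes too without innervated WT replicate 2. In the order innervated WT, denervated WT and DKO-labelled, the 8 macrophage markers summed to 123 to 217, 198 to 245 and 143 to 246 FPKM, and Cd68 was the only one of them called higher in WT (log2 1.58 ± 0.28, edgeR adjusted p = 0.0111; 0.0873 without innervated WT replicate 2). Of the macrophage sums Lyz2 alone held 172 and 93, 180 and 139, and 147 and 77.8 FPKM, and it was not called in WT (0.33 ± 0.39). The 6 satellite cell markers summed to 14.8 to 16.3, 16.6 to 20.7 and 23.6 to 26.8 FPKM. Of these sums Cdh15 alone held 7 and 7.84, 14.6 and 11.7, and 17.8 and 21.3 FPKM. Of 5 tested, 1 was called higher in WT, Cdh15 (0.95 ± 0.18, edgeR adjusted p = 0.0143), and 1 lower, Chodl (-0.85 ± 0.23). The Cdh15 call was lost without innervated WT replicate 1 (0.88) or 2 (1.03). In WT 3 of the 5 had a negative log2 change and 2 a positive one, with a median of -0.36. The 8 Schwann cell markers summed to 101 to 103, 45.8 to 48.2 and 43.5 to 45.9 FPKM, with 1 higher and 5 lower in WT, and 2 and 1 lower without innervated WT replicate 1 and 2. The 6 endothelial markers summed to 107 to 118, 46.3 to 53.2 and 36.6 to 55.4 FPKM, with all 6 lower, and the fibre markers to 25700 to 31000, 10400 to 12400 and 10200 to 10800, with 5 of 9 lower; without innervated WT replicate 1 only 1 of each list was lower, and without replicate 2 the counts were 0 and 1. Quantile normalization in limma called 1 fibre marker lower. Adipocyte markers summed to 771 to 801, 269 to 298 and 246 to 339 FPKM. Of these sums Fabp4 alone held 714 and 768, 261 and 289, and 319 and 237 FPKM. Tendon markers summed to 182 to 240, 117 to 152 and 154 to 157 FPKM. In WT all 6 adipocyte markers had a negative log2 change, as did 5 of 6 tendon markers, with Scx at 2.21 ± 0.33. Neutrophil markers summed to 5.62 to 13.6, 30.9 to 73.7 and 94 to 121 FPKM. The gene S100a8 alone held 86.1 and 119 FPKM of the neutrophil sum in the DKO-labelled pair, and it was the only neutrophil marker of 4 tested that was called in either comparison with innervated WT. No marker of these lists other than Acta1 was at 0 in all libraries. The part of any of these cells in the values of the axis was not tested.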

How the data were processed

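The deposited tables, 1 per library, hold values made by the authors: FPKM, a signal of fragments scaled by 1 factor per library (not used further), and raw fragments, which are estimated counts, per the file headers. Per the submitters' processing notes, Cuffdiff 2.0.2, TopHat2 2.0.3 and Bowtie2 2.0.0.7 were used with build mm9, as were Trim Galore 0.2.1 and CASAVA 1.8.2. The annotation and strand use are not stated in the sources used here. Each line stands 3 times, and 1 copy was kept. Entries of 1 symbol were summed. Replicates are numbered in accession order.

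Estimated counts were rounded (88.4% to 89.0% were whole within 1e-06) and tested with edgeR 4.0.16 in R 4.3.3 (TMM scaling, quasi-likelihood F test, two-sided, 3 group means over the 6 libraries, 3 residual degrees of freedom), for genes of a mean FPKM of at least 0.5. SE is the log2 change over the square root of F. Alternatives used DESeq2 1.42.0, limma 3.58.1 on log2(FPKM + 0.5) or log2(FPKM + 1), which understates changes of low genes, other filters and scalings, the run of sample numbers (14043 to 14045 and 14049 to 14051) as a block, and each library left out. The code was tested on simulated data. Within every group the 2 libraries differed beyond sampling noise (chi-square per degree of freedom 37.3, 198 and 76.8) and were kept apart. Counting errors cover counting only.

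The genes, lists and tests were chosen with earlier results of these data known. Named were the 10 genes, up to 4 called genes of smallest p in each pathway list or the 2 of smallest p where none was called, Gdf11, the deleted genes, and the 3 genes most correlated with Mstn, Inhba and Fst. Marker genes that a count of 1 refers to were named after their values were seen. The values of 1 gene that this rule names are not reported here.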

Additional observations from a re-analysis of the deposited data

How the results depend on the processing

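In denervated against innervated WT the number of called genes of the axis, 3 in the main fit, was 5 in DESeq2, 0 under a filter of 2 FPKM on the mean (6 genes tested), 0 in the fit of the 4 libraries compared, and 0 to 3 with 1 library left out. In DKO-labelled against innervated WT it was 0 under that filter and 0 to 4 with 1 library left out. The calls over all genes, 3512 and 3843, ran from 202 to 5357 and from 661 to 5517 with 1 library left out, each lowest without innervated WT replicate 2. Between the denervated groups 5 genes were called in all, against 182 in DESeq2, 10 with DESeq2 size factors, 60 with no filter, 2 under the filter of 2 FPKM, 35 and 34 in limma with pseudocounts of 0.5 and 1, 30 with quantile normalization, 0 in the fit of the 4 libraries and 0 to 119 with 1 library left out. No alternative called a gene of the axis there. Fits on fewer libraries have fewer residual degrees of freedom, and otherwise the cause was not tested. Between the denervated groups the sign turned with 1 library left out for Mstn (-0.89 to 0.13), Acvr2b (-0.81 to 0.59), Smad2 (-0.24 to 0.06), Smad3 (-0.19 to 0.27) and Smad7 (-0.37 to 0.48), and Fst, at 0 in the main fit, ran from -0.43 to 0.62. Against innervated WT no gene of the axis changed sign in any alternative. The labels pair no libraries. With the run of sample numbers as a replicate block, 4 genes of the axis were called in denervated WT, with Acvr2b at -1.76 added, 3 in DKO-labelled against innervated WT and 0 between the denervated groups, and the calls over all genes were 4461, 4707 and 4. Deviations of first-run libraries from their group means correlated across genes at 0.14 to 0.43 between groups. Of 396 refitted values of the genes of the axis, 336 were scored as unchanged in direction and side of the threshold, 38 lost a call, 14 gained one and 8 changed sign. Those of Fst between the denervated groups are among the 336 whatever their sign, as a main value of 0 has no direction to keep. Depth limits Inhba, Acvr2b and Mstn most, whose lowest libraries held 18, 31 and 33 fragments.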
